A study of Saccharomyces cerevisiae with 32 samples.

Results

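FDH1 (YOR388C), the gene of formate dehydrogenase, is 1 of the 6328 genes in an RNA-seq table of xylose-fermenting Saccharomyces cerevisiae. It was found by its gene name and followed through all 32 libraries, which cover 20 combinations of strain, sugar and oxygen. It was chosen for its pattern over these libraries, so its levels and differences are given as a description with no test. The 3 strains compared are of 1 lineage. Y127 was evolved from Y22-3 on xylose with oxygen and carries null alleles of ISU1 and HOG1. Y128 was evolved from Y127 on xylose without oxygen and has also lost GRE3 and IRA2. Y22-3 is the stress-tolerant parent. All carry the engineered xylose isomerase xylA of Clostridium phytofermentans, xylulose kinase XYL3 of Scheffersomyces stipitis and a transaldolase gene, and each evolved strain is a single isolate.

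Every strain was cultured in rich YP medium with 2% xylose or 2% glucose, without or with oxygen. Duplicate cultures were collected on different days (12 groups of 2 libraries). Y128 and Y22-3 were also cultured on galactose and on sorbitol, without and with oxygen, with 1 library for each of these 8 conditions. The anaerobic xylose cultures of Y127 and Y22-3, and the sorbitol cultures, are described as not growing. The paper describes Y22-3 as unable to metabolize xylose. Cultures of the 12 groups were started from saturated aerobic glucose cultures and in most cases grown to mid-log phase. In anaerobic xylose, Y127 and Y22-3 were instead started at that density and incubated for the same time. The effect of this culture history cannot be told apart from those of strain and oxygen. Formate dehydrogenase oxidizes formate to carbon dioxide and passes the electrons to NAD+, giving NADH. In yeast, formate is a by-product of the synthesis of folates, riboflavin, NAD and ergosterol and of formaldehyde detoxification. Formate is also an entry of 1-carbon units into the folate pathway, and not the only one. FDH1 is known for its low expression on glucose and its induction by formate in the medium.

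The deposited value is the log2 of RPKM, that is of reads scaled to the length of the gene and the depth of the library, and the totals behind it, recovered from the lowest values of each library, ran from 7.53 to 24.1 megareads (M). With 1 read taken as added to every gene and the reference length of 1131 bases, every FDH1 value under 200 reads lay within 0.0136 of a whole read. FDH1 then had between 1 and 17628 reads per library and no library at 0. In 24 libraries it had fewer than 60 reads, in 18 of these fewer than 20, and in 8 libraries it had more than 200. No library lay between 1.56 and 3.72 on the log2 RPKM scale, and the span of all 32 was 13.31. The added read and the total limit what can be seen at the bottom of this range, where a gene with 0 reads would be listed between -4.77 and -3.09. In bulk RNA, fewer cells that express a gene and less of its RNA in each cell cannot be told apart.

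FDH1 was high in 2 of the 12 duplicated groups. In anaerobic xylose Y127 had 7.34 and 6.33 log2 RPKM (2928 and 1231 reads), which is 162 and 80.3 RPKM. In aerobic xylose Y22-3 had 7.75 and 9.54 log2 RPKM (1833 and 17628 reads), which is 215 and 744 RPKM. Ranked within its own library, FDH1 stood above 92.6% and 84.7% of the 6328 genes in Y127 and above 91.8% and 97.3% in Y22-3. The strain and the oxygen condition of the high level were thus different in each case, and xylose was common to both.

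On xylose the other 4 groups were far lower. Y127 with oxygen had 1.56 and 0.66 log2 RPKM (51 and 23 reads). Y128 had -3.08 and -3.77 (2 reads and 1 read) without oxygen and 0.06 and 0.14 (16 and 20 reads) with it. Y22-3 without oxygen had -0.40 and -0.75 (14 and 10 reads). The anaerobic Y128 libraries were the lowest of the series although they were among the deepest, at 22.5 and 24.1 M, and only 1.91% and 0.932% of genes were listed below FDH1 there.

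On glucose no library reached 15 reads. Without oxygen the values were -1.09 and -0.45 log2 RPKM in Y127, -0.24 and 0.09 in Y128, and -1.71 and -1.67 in Y22-3. With oxygen they were -1.14 and -0.29 in Y127, -2.50 and -1.42 in Y128, and -1.18 and -1.61 in Y22-3. These levels rest on 3 to 14 reads each, and their order is loose. One of these glucose libraries, Y128 with oxygen replicate A, held 3 reads, which makes it, with the anaerobic xylose pair of Y128, 1 of 3 libraries at or under 3 reads.

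**Figure D1:**
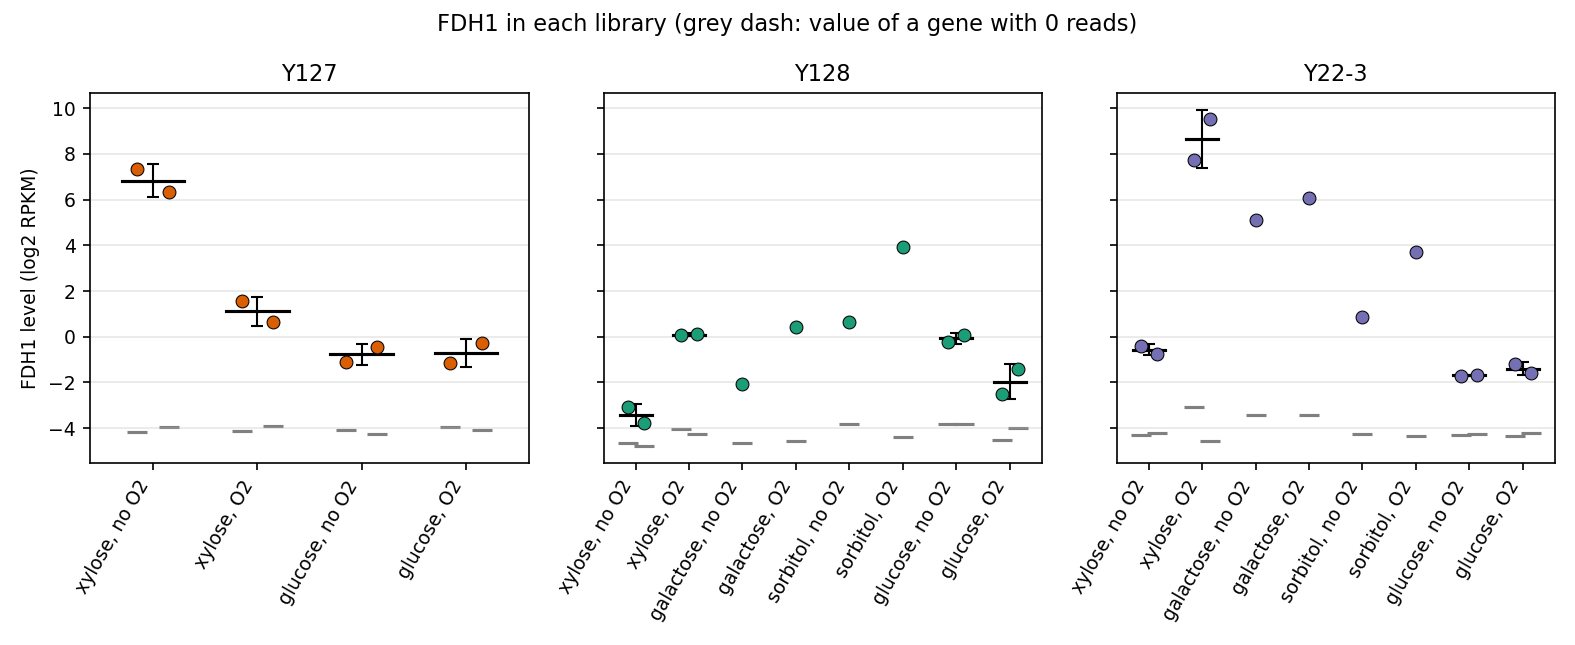
FDH1 level in log2 RPKM (vertical axis) for each library (points) by sugar and oxygen (horizontal axis), 1 panel per strain, with the mean and SD of duplicates in black and the value of a gene with 0 reads as a grey dash. Y127 in anaerobic xylose (6.33 and 7.34) and Y22-3 in aerobic xylose (7.75 and 9.54) stand above all other duplicated groups, and Y128 in anaerobic xylose (-3.77 and -3.08) lies nearest to the dash.

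Ordered by their means, the groups ran from Y22-3 in aerobic xylose (8.65 ± 1.27 log2 RPKM, SD, n = 2 in each group) through Y127 in anaerobic xylose (6.83 ± 0.71) to Y127 in aerobic xylose (1.11 ± 0.64). The first 2 did not overlap, but their means lay 1.81 apart, less than their SDs added. Below it, Y128 in aerobic xylose (0.10 ± 0.06) lay 1.01 lower with no overlap, and overlapped Y128 in anaerobic glucose (-0.07 ± 0.23). The next gap, 0.50, also exceeded the SDs added. Y22-3 in anaerobic xylose (-0.57 ± 0.24), Y127 in aerobic glucose (-0.71 ± 0.60) and Y127 in anaerobic glucose (-0.77 ± 0.45) overlapped one another. Y22-3 in aerobic glucose (-1.39 ± 0.30) and in anaerobic glucose (-1.69 ± 0.03) lay apart by less than their SDs added, and the anaerobic one lay within the range of Y128 in aerobic glucose (-1.96 ± 0.77). Y128 in anaerobic xylose closed the order (-3.43 ± 0.49) and did not overlap its neighbour.

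The agreement of duplicates was poorest where FDH1 was highest. In Y22-3 in aerobic xylose, replicate A lay 1.79 log2 units below replicate B (3.46-fold), while the SD of the same gap over the 5801 genes with a mean of at least 1 RPKM was 0.45. Only 29 of those genes (0.500%) had a gap as large. Replicate A was also the shallowest library of all, at 7.53 M against 20.9 M for B. Both libraries were nevertheless above every other library of the duplicated groups, so the place of this group at the top did not depend on which of them was taken.

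Xylose cultures without oxygen were compared with those with oxygen in each strain, since Y128 was evolved to ferment xylose without oxygen. FDH1 was 5.72 log2 units higher without oxygen than with it in Y127 (52.7-fold). The difference was -3.52 in Y128 and -9.22 in Y22-3. All 4 pairs of libraries showed the direction in each strain. Among the 5801 genes, ordered by difference, FDH1 was about the 24th from the top in Y127, the 74th from the bottom in Y128 and the 4th from the bottom in Y22-3. Places in this and later orders may stand a single place too far from the end, since rounding could count FDH1 against itself. The median of all genes was 0.13 in Y127, -0.11 in Y128 and -1.28 in Y22-3, so most genes in Y22-3 were lower as well.

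A fold change for Y128 is poorly bounded because so few reads lay on the gene. The anaerobic xylose libraries held 3 FDH1 reads among 46.6 M, and the aerobic xylose libraries 36 among 31.3 M. The rate without oxygen was 0.0561 of that with oxygen, with an exact 95% interval of 0.0110 to 0.177. Set against the other anaerobic cultures, it was 0.0643 of that in Y128 on glucose (0.0124 to 0.211) and 0.0907 of that in Y22-3 on xylose (0.0175 to 0.299). It was 0.000458 of that in Y127 on xylose (9.45e-05 to 0.00134), where 4159 reads were found. These intervals cover counting error alone, since reads without molecular identifiers are not independent molecules.

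On glucose the response to oxygen was small beside these values. Without oxygen FDH1 was 1.89 log2 units higher than with oxygen in Y128, where both anaerobic libraries exceeded both aerobic ones. It differed by -0.06 in Y127, where the groups overlapped, and by -0.29 in Y22-3, less than the SDs added. Leaving out 1 library at a time, the difference in Y127 ranged from -0.48 to 0.37.

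Xylose was next compared with glucose at the same oxygen level. Without oxygen FDH1 was 7.60 log2 units higher on xylose in Y127 (194-fold), which was the largest increase of all 5801 genes. The difference was -3.35 in Y128 (the 63rd from the bottom) and 1.11 in Y22-3. In this last comparison the median of all genes was -1.39, and after centring, in which the median over tested genes was subtracted from each library, FDH1 was 2.35 higher. With oxygen FDH1 was higher on xylose in each strain, by 1.82 in Y127 (3.54-fold), by 2.06 in Y128 (4.16-fold) and by 10.04 in Y22-3 (1052-fold, the 7th from the top). These folds include the added read and so understate changes that start from a few reads.

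The evolved strains were then set against their parent in the same medium. In aerobic xylose the difference from Y22-3 was -7.53 log2 units in Y127 (185-fold lower, the 9th from the bottom) and -8.55 in Y128 (374-fold lower, the 5th). In anaerobic xylose FDH1 was 7.40 higher in Y127 than in Y22-3 (the 4th from the top), and the difference in Y128 was -2.85. The median of all genes in anaerobic xylose was itself 1.125 higher in Y127 and 1.04 higher in Y128 than in Y22-3. Y127 and Y22-3 are both described as not growing in anaerobic xylose, and their FDH1 levels there were 169-fold apart before centring. Whether lack of growth has a part in either level was not tested.

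**Figure D2:**
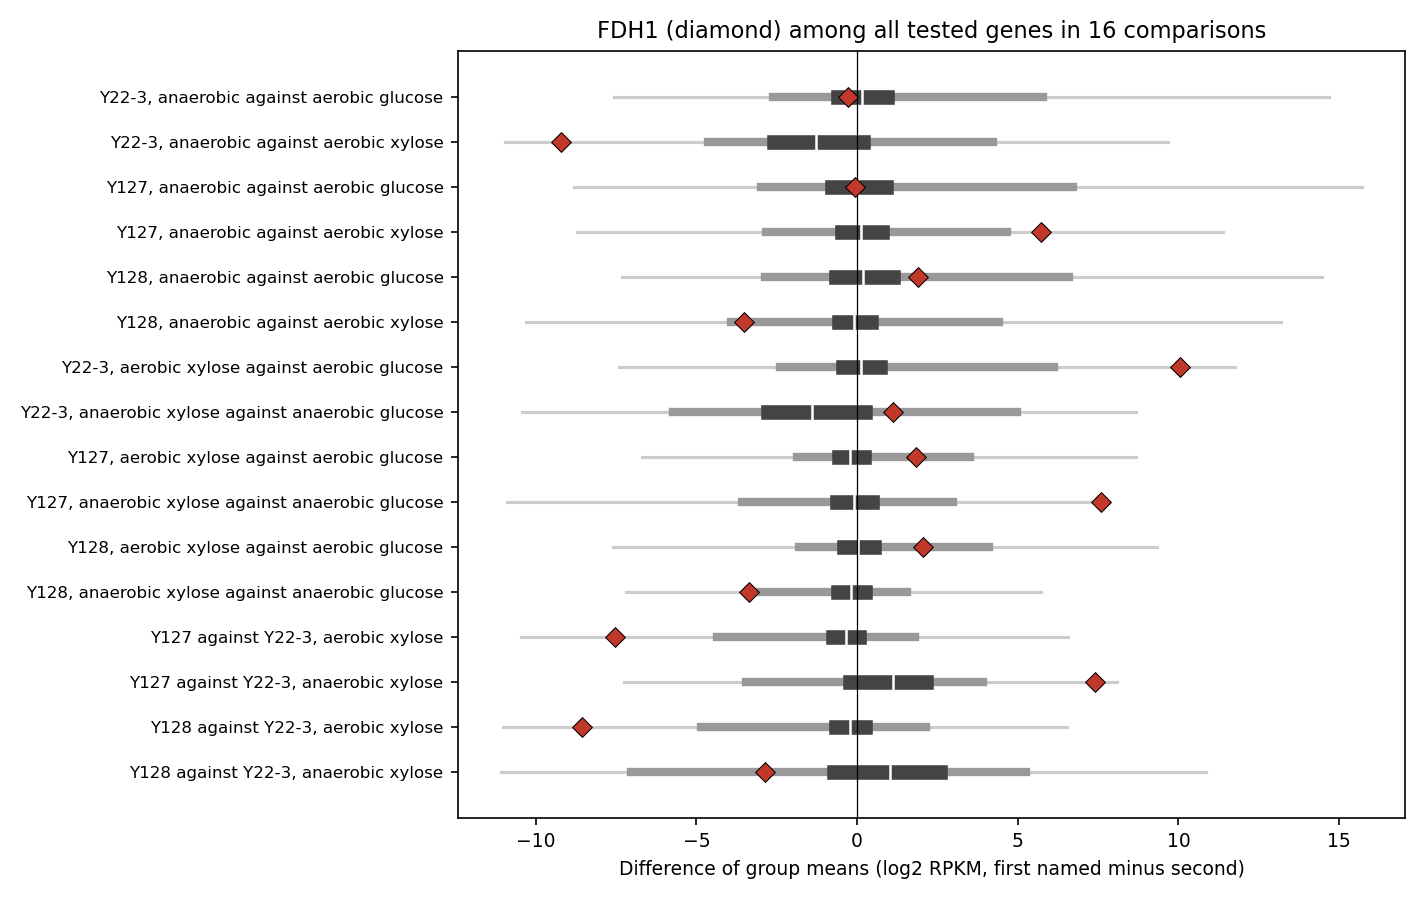
Difference of group means in log2 RPKM (horizontal axis, first named group minus second) for 16 comparisons (rows). The thin line spans all 5801 genes, the grey bar the 1st to 99th percentile, the dark bar the quartiles, the white tick the median, and the diamond is FDH1, which lies at 7.60 at the right end of the row of Y127 in anaerobic xylose against glucose and at -0.06 near the median in the row of Y127 on glucose.

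Galactose and sorbitol gave a further view of sugar, with single libraries and therefore no spread. On galactose without oxygen FDH1 had -2.08 log2 RPKM in Y128 (5 reads) and 5.10 in Y22-3 (365 reads). With oxygen it had 0.43 in Y128 (31 reads) and 6.05 in Y22-3 (701 reads). Y22-3 thus carried FDH1 at a high level on galactose in both libraries, and Y128 in neither. The rate in Y128 was 0.00575 of that in Y22-3 without oxygen (exact 95% interval 0.00186 to 0.0135) and 0.0197 with oxygen (0.0133 to 0.0283). These intervals cover counting error alone and not the spread between cultures. Y22-3 on galactose was the only condition without oxygen, beside Y127 on xylose, in which more than 200 reads lay on FDH1.

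On sorbitol the 2 strains were close. Without oxygen FDH1 had 0.66 log2 RPKM in Y128 (21 reads) and 0.85 in Y22-3 (33 reads), and with oxygen it had 3.93 in Y128 (321 reads) and 3.72 in Y22-3 (266 reads). The ratio of Y128 to Y22-3 was 0.865 (exact 95% interval 0.476 to 1.54) without oxygen and 1.16 (0.980 to 1.37) with it. Here too the intervals cover counting error alone, while duplicates of FDH1 lay as far as 3.46-fold apart in Y22-3 in aerobic xylose. Aerobic sorbitol was the only condition in which Y128 had over 200 FDH1 reads. Within each strain the anaerobic sorbitol library was lower than the aerobic one, with differences of -3.27 in Y128 and -2.87 in Y22-3. The medians of all tested genes in these anaerobic libraries were themselves low (2.73 in Y128 and 2.06 in Y22-3, against 4.25 and 4.12 with oxygen). Centred on the medians, the differences were -1.75 and -0.81. On anaerobic galactose the median of Y22-3 was 3.45 against 4.56 with oxygen, and there the difference in FDH1 was -0.95, and 0.16 on centring.

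Of the 8 genes listed beside FDH1 on the map of the S288C reference (assembly R64), 7 are in the table, and 6 of these neighbours passed the filter on low values. The largest correlation of a tested neighbour with FDH1 over the 20 conditions was 0.45, for HSP33, a chaperone-like gene, and the lowest was -0.31, for PAU21, of the seripauperin family. In Y127 in anaerobic xylose against anaerobic glucose, where FDH1 had the largest difference of all genes, the nearest tested genes PHR1, the DNA photolyase, and YOR389W differed by -0.06 and 0.50, and PAU21 by -9.70. Of these 6 neighbours 2 were called higher and 1 lower by limma at an adjusted p-value under 0.05, where 50.2% of all genes were called. Other comparisons moved more of them. Without against with oxygen on xylose in Y127, 5 of 6 were called higher (33.6% of all genes), with ERR1, an enolase-related gene, at 5.07, beside 5.72 for FDH1. In the same comparison 3 were higher and none lower in Y128 (47.3% called in either direction), and 3 higher and 3 lower in Y22-3 (84.4%; 3 and 0 on centring), with ERR1 at 2.49 and 5.52, where FDH1 was at -3.52 and -9.22. In Y22-3 in aerobic xylose against glucose, 5 were higher and 1 lower (53.2% called in either direction), with ERR1 at 4.55. ERR1 and PAU21 have close relatives elsewhere in the genome and may share reads with them.

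The 10 genes with the highest Pearson correlation to FDH1 over the 20 conditions were picked for that likeness and are described without a test. The points share strains and a common processing, and 2 of them hold the highest FDH1 levels. Over all tested genes the median correlation was 0.03, with 90% of genes between -0.34 and 0.54. GTK30P00120, a gene of the Y22-3 annotation with no other name in the table, was the most alike (0.90, Spearman 0.80). It had 6.23 and 5.10 log2 RPKM in Y127 in anaerobic xylose and 5.38 and 6.75 in Y22-3 in aerobic xylose, against -3.70 and -3.80 in Y128 in anaerobic xylose. Its 2 high groups were those of FDH1. Without the 2 conditions in which FDH1 was highest, its correlation over the other 18 was 0.83, and those of the other 9 genes ran from 0.66 for YJL068C to 0.83 for DCI1.

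The remaining 9 were IRC24, a putative reductase (0.84), ADH2, the glucose-repressed alcohol dehydrogenase that consumes ethanol (0.84), DCI1, a peroxisomal isomerase (0.83), and PEX11, which acts in peroxisome proliferation (0.83). FBP1, the gluconeogenic fructose bisphosphatase (0.82), YPR098C (0.81), CIT3, a mitochondrial citrate and methylcitrate synthase (0.79), YJL068C, S-formylglutathione hydrolase (0.78), and MLS1, malate synthase of the glyoxylate cycle (0.78), followed. Of the 10, 7 had their highest mean in Y22-3 in aerobic xylose, as FDH1 did. ADH2 had 8.57 ± 0.81 log2 RPKM in Y127 in anaerobic xylose, 3.58 ± 0.35 in Y128 in anaerobic xylose, and 14.36 ± 0.62 in Y22-3 in aerobic xylose (SD, n = 2 each). ADH2 also reached 12.79 in Y128 in aerobic sorbitol, where FDH1 had 3.93.

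All 10 were lower without oxygen on xylose in Y128 (-5.11 to -0.20) and in Y22-3 (-10.96 to -0.39), and all 10 were higher in Y127 (0.20 to 5.77). FDH1 itself was at -3.52, -9.22 and 5.72 in these comparisons, and the medians of all genes were -0.11, -1.28 and 0.13. The 10 were picked over conditions that include these, so shared directions follow in part from the choice. Centring turned the sign for YJL068C and IRC24 in Y22-3 and for MLS1 in Y127. GTK30P00120 was nearest to FDH1 in Y127, at 5.77, followed by CIT3 at 3.94.

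**Figure D3:**
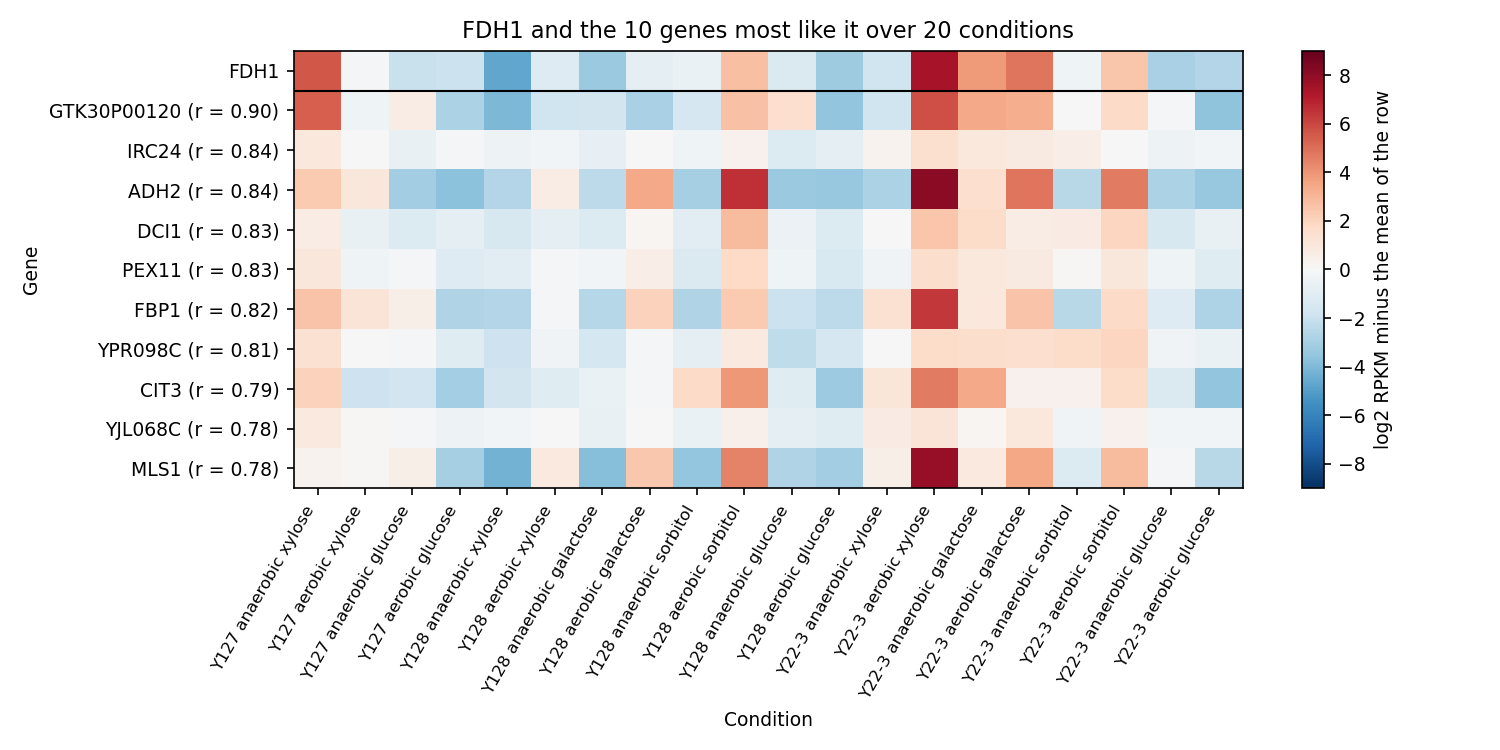
Mean log2 RPKM of each condition (columns, grouped by strain) minus the mean of the row, for FDH1 (top row) and the 10 genes most correlated with it (rows below, with Pearson r over 20 conditions). Red is above and blue below the mean of the gene, and FDH1 and GTK30P00120 share strong red in Y127 in anaerobic xylose (6.83 and 5.66 log2 RPKM) and Y22-3 in aerobic xylose (8.65 and 6.07).

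Genes around formate were taken next. Of the list, 8 encode enzymes that release formate or handle the formaldehyde behind it and 19 encode enzymes of folate-bound 1-carbon units. All 27 were tested with limma at a Benjamini-Hochberg adjusted p-value under 0.05. They spanned 1.78 to 6.88 log2 units over the 20 conditions, against 12.07 for FDH1. Their correlations with FDH1 had a median of 0.04, and only YJL068C exceeded 0.5.

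In Y127 in anaerobic xylose against anaerobic glucose, 9 of the 27 were higher and 8 lower, where 50.2% of all genes were called. Without 1 anaerobic glucose library 4 were higher and 8 lower, and without anaerobic xylose B 5 and 10. Their median difference was -0.01, against -0.10 over all genes. YJL068C, which releases formate from S-formylglutathione, had 7.58 and 7.82 log2 RPKM on xylose and 6.73 and 6.65 on glucose, and rose by 1.01 (standard error 0.16, limma adjusted p = 3.88e-05). RIB3, whose product makes a riboflavin precursor and formate, rose by 1.10. ERG11, the sterol demethylase that frees formate, fell by 4.56 (adjusted p = 8.92e-14, limma), and MET6, methionine synthase, fell by 3.66.

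In Y128 the same comparison gave 4 higher and 6 lower (38.8% of all genes called), with a median of 0.00 against -0.18 over all genes, and with centring 7 were higher and 4 lower. Without 1 library the Y128 counts were as low as 1 higher and 2 lower (without anaerobic glucose B). RIB3 rose by 1.28 there and ADI1, acireductone dioxygenase of the methionine salvage pathway, fell by 2.42. In Y22-3 in aerobic xylose against aerobic glucose, 8 of the 27 were higher and 9 lower (53.2% called), with a median of -0.07 against 0.11, and with centring 7 were higher and 12 lower, while 5 were higher without aerobic glucose B. LPD1, the dehydrogenase subunit shared by the glycine cleavage complex, rose by 1.41, YJL068C by 1.35, and ADE17, of purine synthesis, fell by 3.46 (standard error 0.56, limma adjusted p = 3.35e-05).

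Without against with oxygen on xylose, 5 genes of the list were higher and 6 lower in Y127 (57.1% of all genes called), and with centring 3 and 11. The split in Y127 was 9 and 6 without aerobic xylose A, 4 and 11 without aerobic xylose B, and 8 and 6 without anaerobic xylose A. In Y128, 4 were higher and 7 lower (47.3% called), and 4 were lower without aerobic xylose B or without anaerobic xylose A. In Y22-3, 8 were higher and 16 lower (84.4% called), and with centring 12 and 8. SFA1, the formaldehyde dehydrogenase that precedes YJL068C, rose by 1.14 in Y127, fell by 0.85 in Y128 (limma adjusted p = 0.00516) and rose by 2.77 in Y22-3. In Y22-3, where FDH1 was at -9.22, SFA1 had 10.02 and 10.13 log2 RPKM against 7.15 and 7.46 with oxygen. The extremes of the 27 in Y22-3 were -3.94 for BNA7, a formamidase of NAD synthesis, and 2.77 for SFA1. In Y127 they were -2.28 for MET6 and 1.14 for SFA1, beside 5.72 for FDH1. In Y128 the lowest, ADI1 at -3.37 (limma adjusted p = 4.01e-08), was close to FDH1 at -3.52.

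On glucose, 3 of the 27 were higher and 15 lower without oxygen in Y127 (68.2% of all genes called), 6 and 12 in Y128 (68.4% called; 4 and 15 on centring), and 3 and 15 in Y22-3 (65.4% called). Their medians were -0.73, -0.61 and -0.59, against 0.02, 0.18 and 0.15 over all genes. SHM2, the cytosolic serine hydroxymethyltransferase that charges folate with 1-carbon units, fell in each strain, with differences of -2.95 in Y127, -2.39 in Y128 and -2.85 in Y22-3. In aerobic xylose against aerobic glucose, 3 were higher and 15 lower in Y127 (39.8% called), and 5 higher and 10 lower in Y128 (42.9% called). The higher counts were down to 1 in Y127 without either aerobic glucose library or without aerobic xylose A, and to 3 in Y128 without aerobic glucose A or aerobic xylose A. In anaerobic xylose against anaerobic glucose in Y22-3, 10 were higher and 13 lower (86.6% called), and 16 and 7 on centring. Means there were 4.99 log2 RPKM on xylose and 11.5 on glucose for ERG11. For GCV1, of the folate list, they were 8.53 and 4.85.

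Against Y22-3 in aerobic xylose, 2 of the 27 were higher and 12 lower in Y127 (49.0% called; 3 and 7 on centring), and 2 higher and 8 lower in Y128 (47.5% called; 4 and 6 on centring). Leaving out 1 library left 0 or 1 higher without Y22-3 B, Y127 A or Y127 B for Y127, and without Y22-3 B or Y128 B for Y128, and 7 lower in Y127 without Y127 B. Both genes of formaldehyde oxidation fell there. SFA1 was at -1.21 in Y127 and -1.40 in Y128, and YJL068C at -1.05 and -1.18. Against Y22-3 in anaerobic xylose, 11 were higher and 13 lower in Y127 (81.6% called; 7 and 16 on centring), and 12 higher and 10 lower in Y128 (85.9% called; 9 and 14 on centring). SFA1 fell by 2.84 in Y127, in which FDH1 was 7.40 higher, and fell by 5.03 in Y128 (limma adjusted p = 1.14e-13).

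Genes known to be repressed by glucose, 12 in all with JEN1 absent from the table, were closer to FDH1 in the size of their differences. In Y22-3 in aerobic xylose against aerobic glucose, all 11 tested were higher (31.0% of all genes were called higher), with a median of 9.13 and a maximum of 11.54 for ADH2 (limma adjusted p = 7.98e-17), beside 10.04 for FDH1. In the same comparison 10 of 11 were higher in Y127 (14.0% called higher), with a median of 3.11, and 10 of 11 in Y128 (24.3%), with a median of 3.48, where FDH1 was at 1.82 and 2.06. Without oxygen, 8 of 11 were higher and 2 lower on xylose than on glucose in Y127 (50.2% of all genes called in either direction), with a median of 1.55. FDH1, at 7.60, was above all 11, of which ADH2 was the highest at 5.43. In Y128, 1 was higher and 5 lower (38.8% called; 2 and 5 on centring), with a median of -0.75, and the lowest, PCK1, which encodes a gluconeogenic carboxykinase, was at -2.81, beside -3.35 for FDH1.

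The response to oxygen on xylose in this list had 7 genes higher and 1 lower in Y127 (57.1% of all genes called, median 0.99), 1 higher and 8 lower in Y128 (47.3%, median -1.41), and 3 higher and 8 lower in Y22-3 (84.4%, median -4.11). With centring Y127 had 5 higher and 2 lower, and the other splits were as before. In Y127 the genes nearest to FDH1 at 5.72 were ACS1, acetyl-CoA synthetase, at 5.20, and ADY2, an acetate transporter, at 4.86. In Y128 MLS1 was at -5.11 and ADH2 at -3.31, beside -3.52 for FDH1, and ACS1 rose by 2.66. CAT8, an activator of gluconeogenic genes, rose by 3.08 without oxygen in Y22-3, in the comparison in which ADH2 fell by 10.96.

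On glucose the list and FDH1 parted. Without against with oxygen, 10 of 11 were higher in Y127 (35.3% of all genes called higher), 7 in Y128 (39.6%) and 9 in Y22-3 (37.7%), and none was lower. The medians were 3.24, 3.11 and 2.37, where FDH1 was at -0.06, 1.89 and -0.29. PCK1 rose by 7.11, 6.07 and 5.86, while ADH2, with 0.58, 0.07 and 0.59, did not pass the test. Against Y22-3 in aerobic xylose, 10 of 11 were lower and none higher in Y127 (38.7% called lower; median -5.35) and in Y128 (31.2%; median -6.52), beside -7.53 and -8.55 for FDH1. Against Y22-3 in anaerobic xylose, 5 were higher and 4 lower in Y127 (81.6% of all genes called; 3 and 6 on centring), with ADH2 at 5.17 beside 7.40 for FDH1, and 1 was higher and 8 lower in Y128 (85.9% called).

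**Figure D4:**
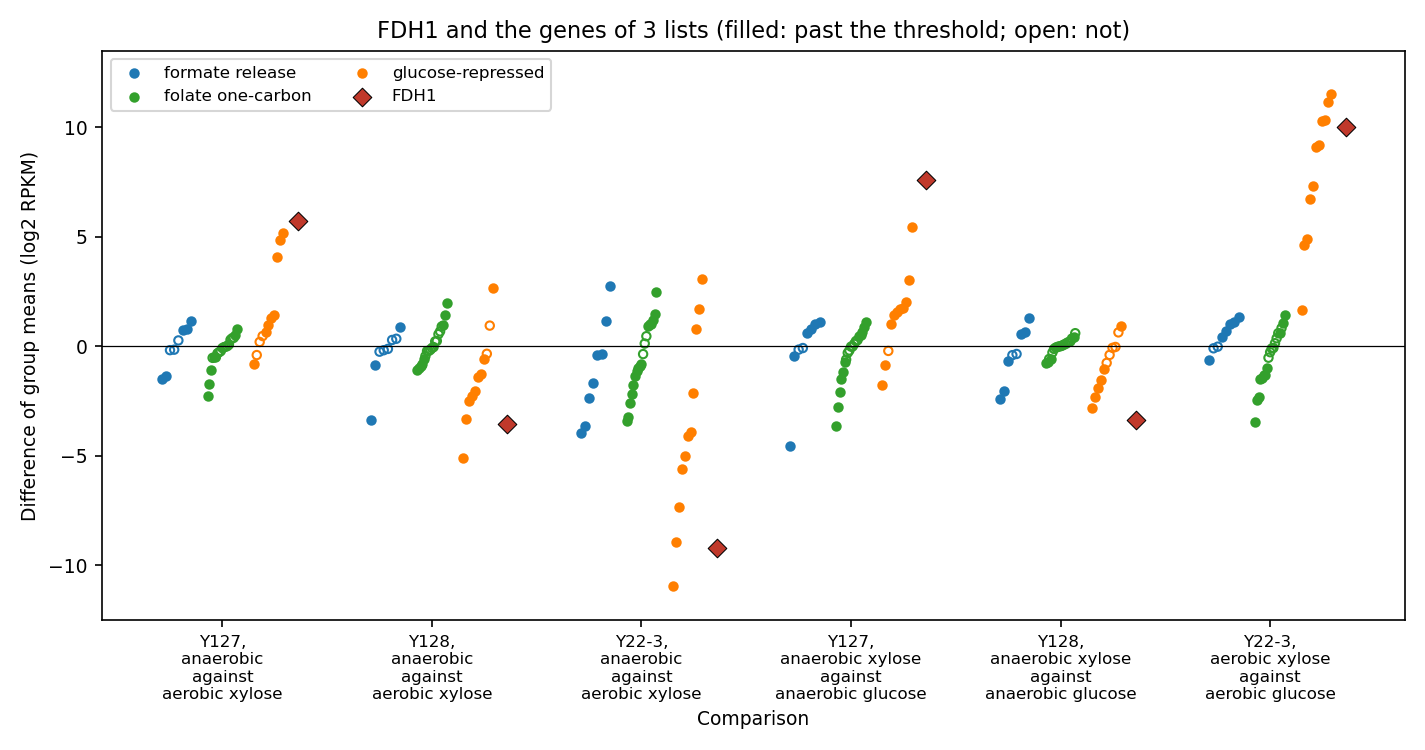
Difference of group means in log2 RPKM (vertical axis) in 6 comparisons (horizontal axis) for the tested genes of 3 lists (dots, filled past the limma threshold and open below it) and for FDH1 (diamonds, not tested). In these 6 comparisons formate and folate genes stay between -4.56 and 2.77, while glucose-repressed genes reach 11.54 and -10.96 and FDH1 reaches 10.04 and -9.22. Some formate and folate genes moved further in comparisons not shown here.

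Genes of NADH oxidation, with those of the glycerol phosphate shuttle, were compared last, since NADH is a product of formate dehydrogenase. Of 6 tested, 5 were higher and none lower in Y127 in anaerobic xylose against anaerobic glucose (21.8% of all genes called higher), with and without centring. GUT2, of the glycerol phosphate shuttle, rose by 2.31 and NDE1, an external NADH dehydrogenase, by 1.79. In Y128, 3 were higher (38.8% called in either direction) and NDE1 fell by 1.21. In Y22-3 in aerobic xylose against aerobic glucose, 5 were higher and none lower (31.0% of all genes called higher; 4 and 1 with centring), and NDE2, the other external NADH dehydrogenase, rose by 6.15 (standard error 0.42, limma adjusted p = 1.9e-10). Without against with oxygen on xylose, NDE1 fell in each strain (-4.09 in Y127, -6.97 in Y128 and -3.45 in Y22-3), and NDE2 rose by 5.27, 1.98 and 1.97. Of the 6, 3 were higher and 1 lower in Y127 (57.1% of all genes called), 3 and 3 in Y128 (47.3%), and 2 and 2 in Y22-3 (84.4%; 5 and 1 on centring). GPD1, which uses NADH to make glycerol phosphate, rose in each strain.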

How the data were processed

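Stranded, rRNA-depleted, single-end RNA-seq libraries of 3 strains were analysed. The authors trimmed reads with Trimmomatic 0.3.0, mapped them to the Y22-3 genome with Bowtie2 2.2.2 and counted them with HTSeq 0.6.0. The deposited table holds log2 RPKM values. Library totals and reads were inferred from the steps between low values, with lengths from the S288C reference (R64), and 82.9 to 88.8% of low values came out as whole reads within 0.1. Coordinates and sequences are not given, since the builds differ. Results that need a withheld item are not reported here.

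The row, the gene lists and the comparisons were chosen with earlier results of these data known. Named genes were FDH1, neighbours, the lists, their largest and smallest differences, and the 10 highest Pearson correlations. The study ran its tests on raw counts, which were not used here. In their place limma 3.58.1 (R 4.3.3, variance trend, 12 groups, 12 residual degrees of freedom) was fitted to the 5801 genes with a mean of at least 1 RPKM over 24 libraries, with Benjamini-Hochberg adjustment. P-values measure the spread between duplicates. In Y127 on glucose the columns do not tell replicates apart. Intervals are exact binomial (Clopper-Pearson). On simulated data the fit was tested for recovery of known changes. Alternatives were 1 RPKM added, centring, no filter, pairwise fits, a replicate block and leaving out each library. Python 3.11.15, numpy 2.4.6, pandas 2.3.3, scipy 1.17.1 and matplotlib 3.10.9 were used.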

Additional observations from a re-analysis of the deposited data

Results flagged for a closer look

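In 5 cases the difference in FDH1 had opposite signs in 2 strains under the same change of condition, with no overlap between the groups of libraries in either strain. These differences between strains were not tested. For the loss of oxygen on xylose, the change in Y127 (5.72) exceeded that in Y22-3 (-9.22) by 14.94 log2 units, and the change in Y128 (-3.52) differed from that in Y127 by -9.24. For the loss of oxygen on glucose, the change in Y128 (1.89) exceeded that in Y22-3 (-0.29) by 2.18, on 3 to 14 reads per library. The Y22-3 value there is less than the SDs added and was -0.08 with 1 RPKM added, so no change is shown in that strain. For xylose against glucose without oxygen, the change in Y128 (-3.35) differed from that in Y127 (7.60) by -10.95 and from that in Y22-3 (1.11) by -4.47.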

How the results depend on the processing

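Of the 16 FDH1 differences between duplicated groups, none changed direction when 1 RPKM was added or libraries were centred on their medians. With 1 RPKM added, 11 shrank by more than the replicate spread. Anaerobic against aerobic, they were -7.91 in Y22-3 and -0.92 in Y128 on xylose and 0.62 in Y128 on glucose. For xylose against glucose with oxygen, Y127 had 0.97, Y128 0.70 and Y22-3 8.18, and without oxygen Y127 had 6.17, Y128 -0.83 and Y22-3 0.35. Against Y22-3 in anaerobic xylose, they were 6.10 in Y127 and -0.61 in Y128. Centring moved the last pair to 6.43 and -3.72, and Y22-3 in anaerobic xylose against glucose to 2.35. In the single libraries of Y22-3, centring turned anaerobic against aerobic galactose from -0.95 to 0.16 (chosen after the data were seen). With 1 library left out, Y127 on glucose ranged from -0.48 to 0.37, reversing at 0.37 and 0.27, and the other 15 kept their direction.

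The number of formate and 1-carbon genes called (27 tested) moved by over 1.5 times in pairwise fits in 4 comparisons: 6 against 11 for Y127 and 20 against 11 for Y128, anaerobic against aerobic xylose, 10 against 17 for Y127 in anaerobic xylose against glucose, and 7 against 14 for Y127 against Y22-3 in aerobic xylose. Leaving out 1 library gave 3 to 8, against 10, for Y128 in anaerobic xylose against glucose (3 without anaerobic glucose B, 5 and 4 without anaerobic xylose A and B), and 8 to 18, against 14, for Y127 against Y22-3 in aerobic xylose, with 8 where Y127 replicate B was left out. The cause was not tested. No filter, 1 RPKM added and centring left each count within 1.5 times. A replicate block gave, for example, 18 called for Y128 without against with oxygen on glucose, 23 for Y22-3 on xylose and 11 for Y127 on xylose, and changed none of the 13 counts by over 1.5 times. It could not be fitted for the 3 comparisons with Y127 on glucose. Same-lettered libraries deviated together in 7 of 45 pairs of groups (correlation over 0.1), so the letters were not taken as pairs.

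Depth limits FDH1 most where it was lowest. In 18 libraries fewer than 20 reads lay on it, and in 3 at most 3 reads, so that differences between these groups rest on a few reads.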

Other observations

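In Y22-3 in aerobic xylose replicate A lay below replicate B by 1.36 log2 units for GTK30P00120 and by 1.79 for FDH1, and 9 of the 10 genes most like FDH1 were lower in A. In Y127 in anaerobic xylose replicate A lay above replicate B by 1.13 for GTK30P00120 and by 1.01 for FDH1, whereas the other 9 of the 10 genes most like FDH1 lay below (ADH2 at -1.14, CIT3 at -1.38). Over all tested genes the median of A minus B was 0.16 in Y22-3 in aerobic xylose and -0.18 in Y127 in anaerobic xylose. IRC24 (-0.09) and YPR098C (-0.07) lay above this last median. In Y22-3 in anaerobic xylose the gaps were opposite, with -1.76 in A and -1.24 in B for GTK30P00120 and -0.40 and -0.75 for FDH1. The 2 genes parted in anaerobic glucose, where GTK30P00120 was 3.53 higher than in aerobic glucose in Y127 and 5.08 higher in Y128, and FDH1 differed by -0.06 and 1.89. GTK30P00120 has no position in the sources used here, and whether it shares reads with FDH1 was not tested.

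In Y128 in aerobic sorbitol, FDH1 had 3.93 log2 RPKM, with 47.0% of genes listed below it and a library median of 4.25. Of 3 genes chosen after their values were seen, ADH2 had 12.79 log2 RPKM, PEX11 8.84 and DCI1 6.67, the last 2 being their highest values over the 20 conditions. In Y128 in aerobic galactose ADH2 had 9.65, while FDH1 had 0.43 (31 reads). These are single libraries without a measure of spread.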
